A study of Homo sapiens with 4 samples.

Results

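The integrated stress response is the program by which cells slow general protein synthesis when eIF2α is phosphorylated, while a small set of mRNAs keeps being translated. Several of these mRNAs carry upstream open reading frames (uORFs), short frames in the 5′ UTR that hold back or release ribosomes before the main start codon. N6-methyladenosine (m6A) is a methyl mark on adenines of mRNA, and the 5′ UTR, where uORFs lie, is the region that controls initiation. The m6A peaks of 10 genes of this response were therefore examined: *ATF4*, *ATF5*, *DDIT3*, *PPP1R15A*, *PPP1R15B*, *CHAC1*, *TRIB3*, *SESN2*, *ASNS* and *XBP1*. The genes were chosen by their role in this response, with earlier results of these data known. A peak was counted for a gene when its summit fell in the gene body (GENCODE version 44, hg38). This gave 22 of the 24607 peaks in replicate 1 and 14 of the 19318 peaks in replicate 2.

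The data came from meRIP-seq, in which RNA fragments bound by an anti-m6A antibody are sequenced and their pile-ups are called as peaks. All samples were OE-19, an established line of adenocarcinoma of the esophagogastric junction (AEG), grown in RPMI1640 with serum and antibiotics. The labels name no stress agent and no genetic change. They do state that cells were fixed with UV before lysis, and an effect of that step on this response was not tested. The m6A IP group had 2 samples, each with its own peak list, and the input group had 2 samples, for which no list was analysed here. The median fold enrichment, the height of a peak's summit over the caller's background, was 5.27 in the list of replicate 1 and 5.08 in that of replicate 2. The lists hold neither read numbers nor RNA levels, so the depth is unknown, and a gene without a peak may be unmethylated, weakly methylated or too lowly expressed to be called. The study calls the replicates biological, but the labels do not say whether they were separate cultures. No statistical test was made on these genes, and values are given for each list beside those of all protein-coding genes.

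The sequences below show the core of the m6A motif, GGAC, nearest to the midpoint between both summits of the strongest peak pair of each gene, read 5′ to 3′ on the strand of the gene from hg38, the plus strand unless given as minus. The 4 bases of the motif are in capitals, and for *DDIT3* and *PPP1R15B*, whose shared interval held 0 GGAC, the related GAAC or AAAC is marked. The region named is that of the adenine before the final C of the motif. The *DDIT3* stretch begins in the coding sequence and runs across the stop codon, which its motif overlaps.
*ATF5*, coding sequence, chr19:49932854-49932883: ccaccacccgaggGGACcgcaagcaaaaga
*PPP1R15B*, coding sequence, chr1:204409736-204409765, minus strand: agcagagagtctcAAACtgtggaactcatt
*SESN2*, 3′ UTR, chr1:28280954-28280983: tcctcactggaatGGACagttcattgcact
*DDIT3*, 3′ UTR, chr12:57516794-57516823, minus strand: ctgcaccaagcatGAACaattgggagcatc
*CHAC1*, coding sequence, chr15:40955698-40955727: tggcagccatcgtGGACgctgtgggcacca
*PPP1R15A*, coding sequence, chr19:48874264-48874293: attggccaggagaGGACacagaggaagagg
*TRIB3*, coding sequence, chr20:396626-396655: atggactggggctGGACgaagccagggaag
Not all of these motifs are close to a summit. The *PPP1R15A* motif lay at 707 nt from the replicate 1 summit and −441 nt from that of replicate 2. Other GGAC of *PPP1R15A* lay nearer, at −12 and 6 nt from these summits. The *TRIB3* motif lay at −112 and 120 nt, and the *ATF5* motif at 90 and −63 nt. A motif under a peak is a description of the sequence and does not show which adenine is methylated.

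First, the genes with a peak were counted. All 10 genes had an exonic peak summit in replicate 1, where 42.4% of 20046 protein-coding genes had one. In replicate 2, 7 of 10 had one, against 34.1% of all genes, and the same 7 genes had one in both lists, against 33.4%. *ATF4*, *ASNS* and *XBP1* had peaks in replicate 1 alone. The heights spread widely within each list. The fold enrichment was below the median of the list for 13 of 22 peaks in replicate 1 and for 11 of 14 in replicate 2, while the strongest peaks of *PPP1R15B* stood at percentiles 87.9 and 80.3. With a fold enrichment of 5 or more required, 6 of 10 genes had an exonic peak in either list, against 31.8% of all protein-coding genes, and 3 had one in both, *ATF5*, *PPP1R15B* and *SESN2*, against 19.3%.

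**Figure D1:**
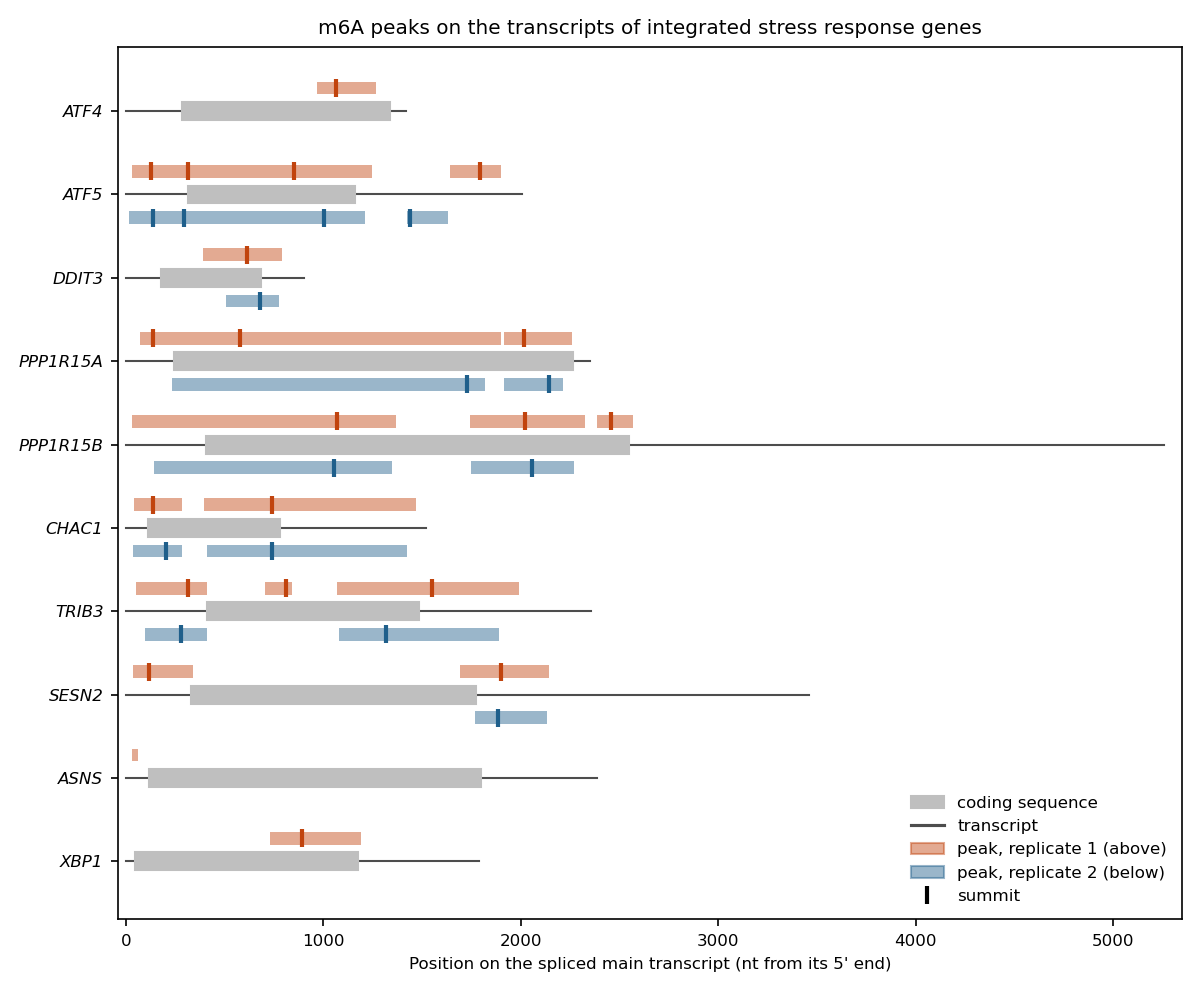
Spliced main transcript of each gene (x axis, nt from its 5′ end), with the coding sequence as a grey box, peaks of replicate 1 above and of replicate 2 below, and summits as ticks. Peaks of *ATF5* and *PPP1R15A* covered nearly the whole coding sequence in both lists, whereas *ATF4*, *ASNS* and *XBP1* had peaks in replicate 1 alone.

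The exonic peaks recurred between the lists about as often as those of other genes. With an overlap of at least 1 bp, 13 of 21 exonic peaks in replicate 1 were shared (61.9%, 95% exact Clopper-Pearson interval 38.4% to 81.9%), against 60.6% of the exonic peaks of all protein-coding genes. In replicate 2, 13 of 14 were shared (92.9%, interval 66.1% to 99.8%), against 95.9%. These intervals cover counting error only, and several peaks lie on the same transcript. The 13 shared peaks formed 13 pairs, and in 13 of 13 the fold enrichment was higher in replicate 1. The median log2 ratio of replicate 1 over replicate 2 was 0.55 ± 0.37 (SD over pairs, n = 13), with a range of 0.02 to 1.18. Over all 10856 exonic pairs the median was 0.44, and 80.6% were higher in replicate 1. The summits of a pair lay a median of 34 bp apart, compared with 26 bp over all pairs.

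**Figure D2:**
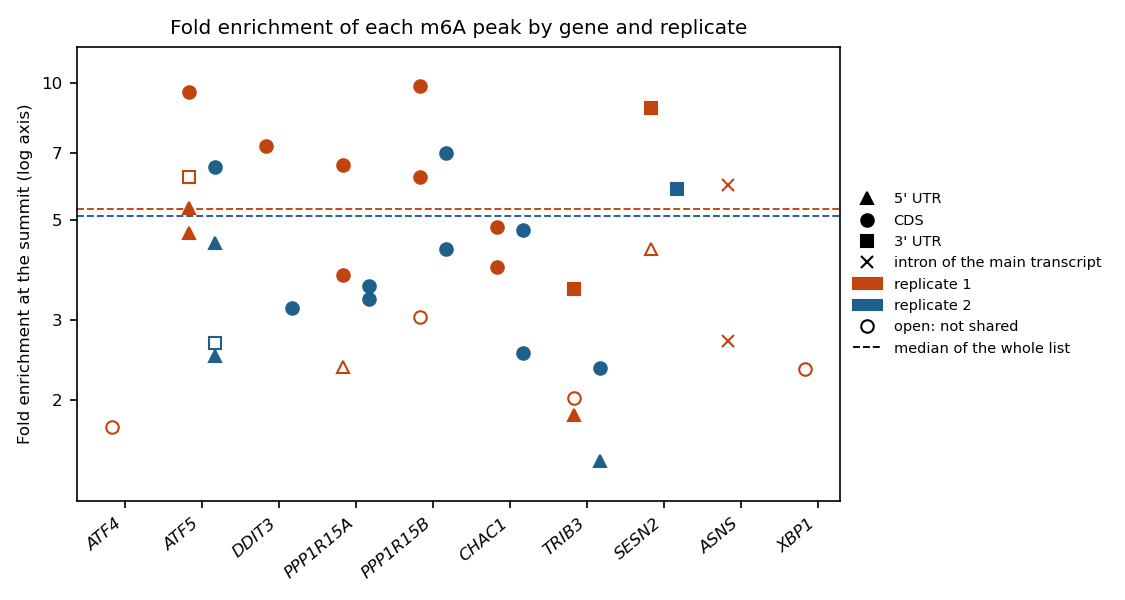
Fold enrichment at the summit (y axis, log scale) of each peak by gene, with the region as symbol, the replicate as colour, and open symbols for peaks not shared. Most points of replicate 2 lie under the dashed median of its list, 5.08, and the highest point is *PPP1R15B* in replicate 1 at 9.87.

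Next, the uORF-bearing factors were examined. *ATF4* and *ATF5* encode bZIP transcription factors whose translation is known to rise under stress through a similar pair of uORFs. On the main transcripts (MANE Select), *ATF4* had 3 upstream ATGs and *ATF5* had 2. Each gene held a 3-codon frame followed by a 59-codon frame that runs into the coding sequence out of frame. Each short frame is shown whole, with its start and stop codons in capitals, followed by the short frame of *PPP1R15B*, 8 codons long, since these are the frames of at most 30 bases that lie under a peak, or, for *ATF4*, the counterpart without one.
*ATF4*, nt 87 to 98 of the transcript, chr22:39520648-39520659: ATGgcgtatTAG
*ATF5*, nt 70 to 81, chr19:49929274-49929285: ATGgctctgTAG
*PPP1R15B*, nt 128 to 154, chr1:204411664-204411690, minus strand: ATGgtgttgaagcgtcgagccgacTAG

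Despite this likeness the peaks of *ATF4* and *ATF5* differed. In *ATF4* no upstream frame was touched by a peak in either list. Its one peak, in replicate 1, lay in the last exon at chr22:39522231-39522529, with the summit in the coding sequence at −270 nt from the stop codon. The fold enrichment was 1.74 and −log10 q was 3.51, at percentile 0.449 of the list, so this peak was among the weakest. No peak of replicate 2 fell in *ATF4*. The *ATF4* transcript held 2 GGAC in 1419 nt, both in the coding sequence, and the peak covered 0 of them.

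*ATF5* had 4 peaks in each list. The peak over exon 1 (chr19:49929233-49929491 in replicate 1) had its summit in the 5′ UTR at −188 nt from the start codon in replicate 1 and at −179 nt in replicate 2. The fold enrichment was 4.66 and 4.44, and −log10 q was 26.4 and 22.4. These were close values, with a log2 ratio of 0.07. The peak over exon 2 (chr19:49930659-49931101 in replicate 1) had its summit at −3 nt from the main start codon in replicate 1 and at −24 nt in replicate 2. Here the lists differed more, with a fold enrichment of 5.31 and 2.51. Both summits lay inside the 59-codon frame. Together the 2 peaks covered the whole of both frames in each list, and 91.1% of the 315-nt 5′ UTR in replicate 1 and 96.2% in replicate 2. The exon 1 peak began at nt 29 of the transcript in replicate 1 and at nt 13 in replicate 2. Whether its signal comes from the 5′ end of the transcript or from the frames was not tested.

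The 5′ UTR of *ATF5* held 0 GGAC, and also 0 of the wider motif set, which adds the variant GAAC, the variant AGAC and the variant AAAC. The nearest GGAC had its adenine 34 nt into the coding sequence, 37 nt downstream of the replicate 1 summit and 58 nt downstream of that of replicate 2, and inside the 59-codon frame. This stretch lies in the coding sequence at chr19:49930870-49930899: tggggctggagctGGACagggccctgctcc
Exons of *NUP62* and *IL4I1* on the opposite strand overlap the exon 1 summits, and the lists carry no strand, so the gene of that peak is uncertain. In the interval shared by both exon 1 peaks the opposite strand held 1 motif of the wider set and 0 GGAC. The exon 2 summits had no such overlap.

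The strongest peak of *ATF5* lay in the last exon, in the coding sequence, where the enrichment reached 9.57-fold in replicate 1 and 6.53-fold in replicate 2. It ended past the stop codon and overlapped MIR4751, an annotated microRNA gene. A weaker 3′ UTR peak was seen in each list, at 6.21 and 2.67, but the 2 did not overlap. All 846 nt of the *ATF5* coding sequence lay under peaks in both lists.

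**Figure D3:**
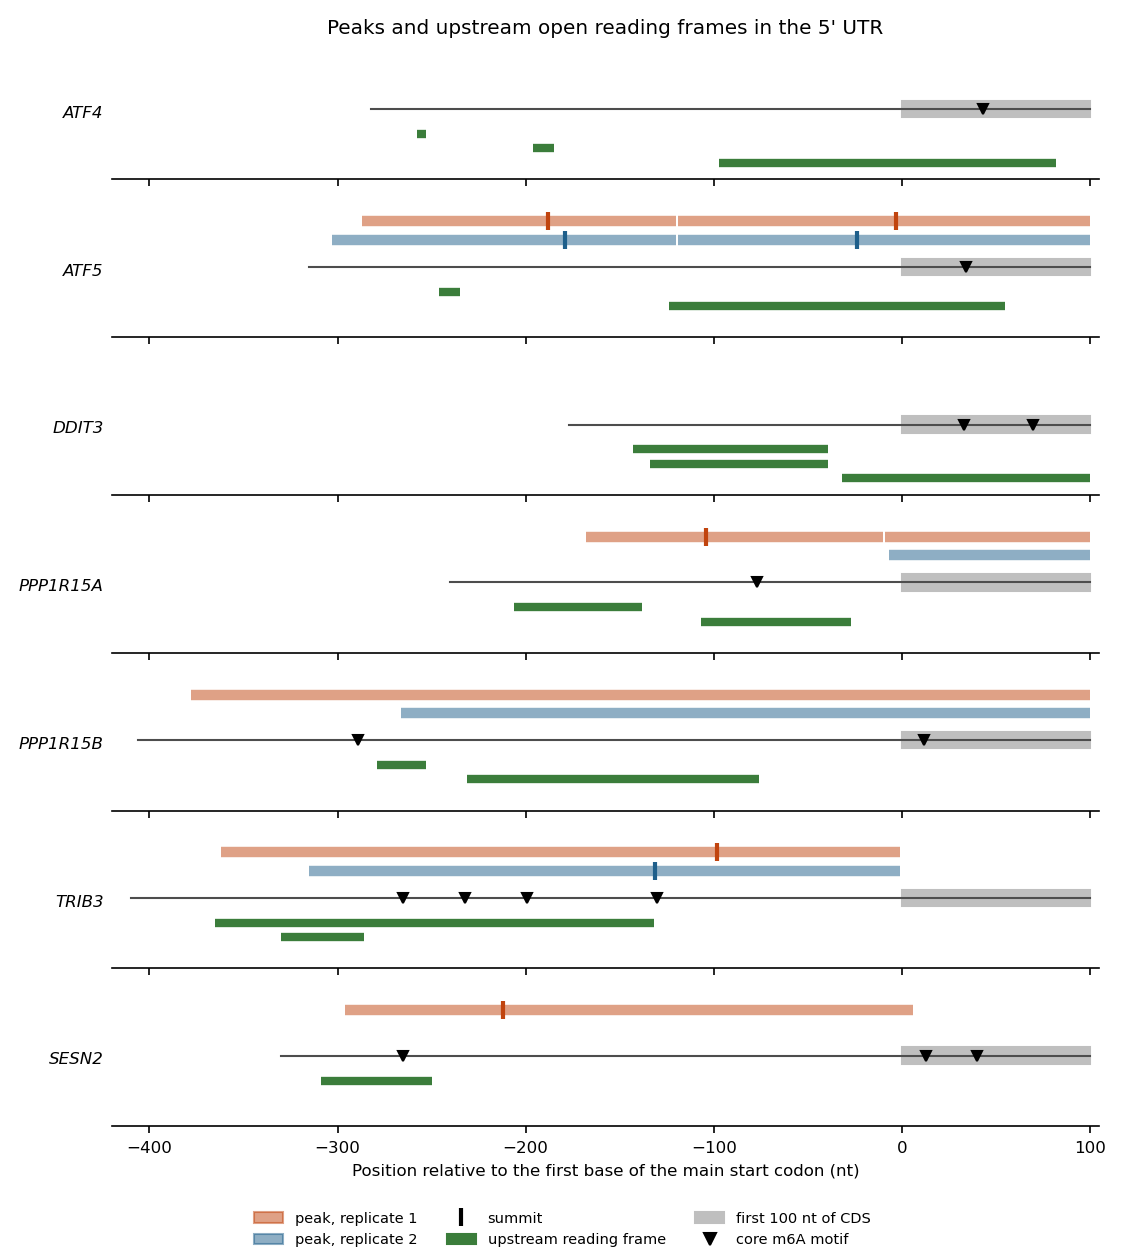
5′ UTR and first 100 nt of coding sequence of the 7 genes with an upstream ATG (x axis, nt from the first base of the main start codon), with upstream frames in green, peaks and summits by replicate, and GGAC motifs as triangles. *ATF5*, *PPP1R15B* and *TRIB3* had peaks over their upstream frames in both lists, *PPP1R15A* and *SESN2* in replicate 1, and *ATF4* and *DDIT3* in neither.

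*DDIT3* encodes CHOP, a transcription factor that promotes cell death under prolonged stress. It had 3 upstream ATGs, none of them under a peak. Its single peak lay in the last exon around the stop codon, at chr12:57516706-57517106 in replicate 1 and chr12:57516722-57516991 in replicate 2. The summits were at −70 and −4 nt from the stop codon. Replicate 1 gave a fold enrichment of 7.27 and replicate 2 one of 3.20, a log2 ratio of 1.18 at percentile 92.1 of all exonic pairs. The *DDIT3* transcript held 2 GGAC, both in the coding sequence and outside the peaks.

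The phosphatase subunits *PPP1R15A* (GADD34) and *PPP1R15B* (CReP) direct protein phosphatase 1 to eIF2α and so end the response. *PPP1R15A* is induced by stress and *PPP1R15B* is made constitutively. Both had broad peaks over long coding exons. In *PPP1R15A* one peak spanned 1724 bp in replicate 1 (chr19:48873169-48874892) and 1586 bp in replicate 2. The replicate 2 peak lay within exon 2, of 1674 nt, and that of replicate 1 began in the intron before it. The fold enrichment of the pair was 6.59 and 3.34. Its summits were 1148 bp apart, at percentile 99.8 of all exonic pairs, although the intervals overlapped over 1586 bp. That interval held 13 GGAC. A further coding peak in the last exon had a fold enrichment of 3.77 and 3.58. Peaks covered 99.1% of the *PPP1R15A* coding sequence in replicate 1 and 92.7% in replicate 2, and 0 nt of its 3′ UTR.

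The 5′ UTR of *PPP1R15A* held 2 upstream frames of 22 and 26 codons. In replicate 1 a weak peak (fold enrichment 2.37, −log10 q 4.14) covered the 26-codon frame, with its summit inside at −104 nt from the start codon. This frame held 1 GGAC. Replicate 2 had no peak there, and its coding peak reached 7 nt into the 5′ UTR.

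In *PPP1R15B*, exon 1 is 2326 nt long and holds the 5′ UTR and most of the coding sequence. The first peak ran from the 5′ UTR into the coding sequence over 1338 bp in replicate 1 (chr1:204410452-204411789) and 1206 bp in replicate 2. Its fold enrichment was 6.21 and 4.30, and its summits, 15 bp apart, lay in the coding sequence at 661 and 646 nt from the start codon. The peak covered 93.1% of the 5′ UTR in replicate 1 and 65.5% in replicate 2. It covered the 51-codon upstream frame whole in both lists and the 8-codon frame whole in replicate 1 and 14 of its 27 nt in replicate 2. An exon of the unnamed gene ENSG00000288934 on the opposite strand also lay under this peak, away from its summits. The second peak, toward the end of exon 1, was the strongest of the 10 genes in each list, at 9.87 and 6.99. The interval shared by both lists held 0 GGAC. One more peak at −91 nt from the stop codon, with a fold enrichment of 3.06, appeared in replicate 1 alone.

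*CHAC1* degrades glutathione and *TRIB3*, a pseudokinase, restrains ATF4 and AKT signalling, and both are targets of ATF4. *CHAC1* had 2 peaks in each list. The last exon carried a peak of about equal height in both, with a fold enrichment of 4.81 and 4.75 and summits at the same base, −38 nt from the stop codon. Its −log10 q of 52.0 and 61.5 was the highest of the 10 genes in each list. A smaller peak across the start codon had its summit in the coding sequence, at 21 nt from the start codon in replicate 1 and 88 nt in replicate 2, and a fold enrichment of 3.93 and 2.55. *CHAC1* had 0 upstream ATGs on its main transcript.

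The *TRIB3* transcript was the richest in GGAC, with 19 copies, or 8.06 per kb, compared with a median of 3.76 per kb over all main transcripts. Its peaks were at or below percentile 19.6 of their lists. The 5′ UTR peak (chr20:380808-381214 in replicate 1) had a fold enrichment of 1.86 and 1.47 and q of 9.32e-06 and 0.0368, so that in replicate 2 it was close to the limit of the list. It covered 88.3% of the 410-nt 5′ UTR in replicate 1 and 76.8% in replicate 2, including 231 and 184 of the 234 nt of a 77-codon upstream frame. The frame ends at nt 279 of the transcript, and the replicate 2 summit was at nt 280 and that of replicate 1 at nt 313. The GGAC nearest to both summits has its adenine at nt 281, at chr20:381025-381054: gcgtccgctgctaGGACccgggcagggctg
The 5′ UTR held 4 GGAC in all, 3 of them in the 77-codon frame. The peak in the last exon spanned the stop codon, at a fold enrichment of 3.52 and 2.36, and a weak peak in exon 3, at 2.02, appeared in replicate 1 alone.

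*SESN2* encodes a leucine sensor that inhibits mTORC1. Its 3′ UTR peak (chr1:28280722-28281169 in replicate 1) had its summits 131 and 113 nt past where the stop codon begins, with a fold enrichment of 8.83 and 5.83 and 18 bp between them. In replicate 1 a further peak covered 89.7% of the 5′ UTR, with a fold enrichment of 4.31 and −log10 q of 7.01, and reached over 47 nt of its one upstream frame, 19 codons long. Replicate 2 had no peak there.

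*ASNS*, the enzyme of asparagine synthesis, and *XBP1*, the factor of the unfolded protein response, had peaks in replicate 1 alone. The exonic *ASNS* peak (chr7:97871774-97872053) had a fold enrichment of 5.95 and −log10 q of 17.0. Its summit lay in an intron of the MANE Select transcript, but in the 5′ UTR of 5 of the 13 protein-coding transcripts that GENCODE lists for the gene. A weaker peak covered 30 nt of the 5′ UTR in exon 1, with its summit in the intron, and peaks covered 0 nt of the *ASNS* coding sequence. In *XBP1*, removal of a short intron by the kinase IRE1 shifts the frame and gives the longer, active factor. The *XBP1* peak (chr22:28795162-28795621) had a fold enrichment of 2.35 and −log10 q of 11.9. Its summit was in the coding sequence of ENST00000344347.6, whose frame of 376 codons is that of the spliced form, at −281 nt from its stop codon. In the other 3 protein-coding transcripts, ENST00000216037.10 with 261 codons among them, the same base lay in the 3′ UTR, 90 nt past where the stop codon begins.

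The location of the summits was then set beside that of all protein-coding genes. Of the summits on main transcripts, 5 of 20 in replicate 1 lay in the 5′ UTR (25%, exact interval 8.66% to 49.1%) and 3 of 14 in replicate 2 (21.4%, 4.66% to 50.8%). The shares over all protein-coding genes were 9.12% and 5.73%, inside these intervals but near their lower bounds. The intervals cover counting error only and treat summits of the same gene as independent, so they do not serve as a test. The summits in replicate 1 belonged to *ATF5* (2), *PPP1R15A*, *TRIB3* and *SESN2*, and those in replicate 2 to *ATF5* (2) and *TRIB3*. In each list 1 of the 2 *ATF5* summits was that over exon 1, whose gene is uncertain. The *TRIB3* peak of replicate 2 had a q of 0.0368, close to the limit of the list. By gene, 2 of 10 had a 5′ UTR summit in both lists, against 2.71% of all genes. Among genes with an exonic summit in both lists, these were 2 of 7 members and 544 of 6686 protein-coding genes. The 10 genes also had longer 5′ UTRs, with a median of 261 nt against 131 nt over all main transcripts, and 7 of 10 had an upstream ATG, against 41.5%. The part of this length in the share of 5′ UTR summits was not tested. On the transcripts with the longest coding sequence, which for *PPP1R15A* and *TRIB3* start elsewhere, the number was 3 in replicate 1 and 2 in replicate 2, all in *ATF5* and *SESN2*. At a fold enrichment of 5 or more it was 1 and 0, and no share over all genes is given at this cut.

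Of the 15 upstream ATG frames in the 10 genes, 12 ended inside the 5′ UTR and 3 ran into the coding sequence out of frame. Peaks touched 9 of the 15 in replicate 1 and 6 in replicate 2, against 13.4% and 8.78% of the 24316 such frames of all protein-coding genes. Over genes with an exonic summit in the same list, the counts were 9 of 15 and 6 of 12, against 29.7% and 22%. Frames of one gene share its peaks, so these counts are not independent. The 6 of replicate 2 belonged to *ATF5*, *PPP1R15B* and *TRIB3*, with 2 frames each. The *TRIB3* frames lay under the peak with a q of 0.0368, close to the limit of the list. Those of *PPP1R15B* lay under a broad peak whose summit is in the coding sequence. The 3-codon frame of *ATF5* lay under the exon 1 peak, whose gene is uncertain. Counting whole peaks in place of summits, 5 genes had a peak over part of the 5′ UTR in both lists, namely *ATF5*, *PPP1R15A*, *PPP1R15B*, *CHAC1* and *TRIB3*, against 6.43% of all protein-coding genes. *PPP1R15A* entered this count in replicate 2 on 7 nt. The 6.43% is taken over all 20046 genes, with or without an exonic peak. Several peaks over a 5′ UTR began near the transcript start, as at nt 29 in *PPP1R15B* in replicate 1 and at nt 42 and 34 in *CHAC1*. Signal from the 5′ end of a transcript was not separated from signal within the frames.

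Fewer summits were in the 3′ UTR, 3 of 20 in replicate 1 (15%, interval 3.21% to 37.9%) and 2 of 14 in replicate 2 (14.3%, 1.78% to 42.8%), against 31.9% and 35.6% over all genes. Coding sequence held 12 of 20 (60%) and 9 of 14 (64.3%), against 59.0% and 58.6%. Near the stop codon, at most 200 nt away, were 5 of 20 (25%, 8.66% to 49.1%) and 6 of 14 (42.9%, 17.7% to 71.1%), against 24.6% and 27.2%. An exon of 400 nt or more held 15 of 20 and 11 of 14 summits, 75% and 78.6%, against 75.1% and 89.1%. Each of these intervals contained the share of all genes, with summits of the same gene again treated as independent. The *XBP1* summit of replicate 1 is counted here in the coding sequence of the spliced form. In the other 3 protein-coding transcripts it lay in the 3′ UTR, 90 nt past where the stop codon begins, so these shares depend on that choice.

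GGAC was present within 50 nt of the summit, on the spliced transcript and the strand of the gene, for 9 of 20 summits in replicate 1 (45%, 23.1% to 68.5%) and 5 of 14 in replicate 2 (35.7%, 12.8% to 64.9%). Over all genes the shares were 50.7% and 52.2%. The longer GGACT was near 2 summits in each list, 10% and 14.3%, against 17.9% and 19.0%. Any motif of the wider set was near 17 of 20 and 12 of 14 summits, 85% and 85.7%, against 85.2% and 87.9%. The share with GGAC depended on the window, at 20% and 21.4% within 25 nt and 65% and 57.1% within 100 nt. Shares over all genes are given for the 50-nt window only.

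**Figure D4:**
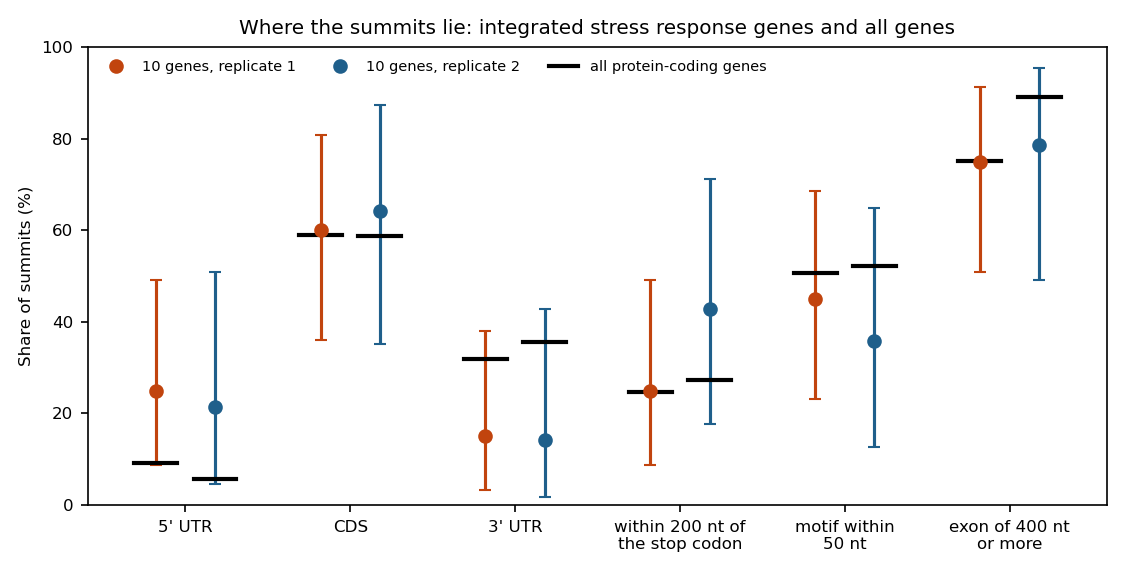
Share of summits (y axis, %) by location and with GGAC within 50 nt for the 10 genes in each list, as points with 95% exact binomial intervals, and for all protein-coding genes as black bars. The 5′ UTR points, 25% and 21.4%, lie above the bars at 9.12% and 5.73%, and each bar lies within its interval.

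Finally, 68 other genes of the pathway were examined by their roles, also chosen with earlier results of these data known. Of these, 40 (58.8%) had an exonic peak in both lists, against 33.4% of all protein-coding genes, and 22 in neither. A summit in the 5′ UTR in both lists was seen in 10 of the 68, against 2.71%. Among genes with an exonic peak in both lists, these were 10 of 40 and 544 of 6686. The counts of single lists of genes below are small, and each is to be read against these shares. For a peak in neither list, no share over all genes is given. An exonic peak was seen in 42.4% of all protein-coding genes in replicate 1 and 34.1% in replicate 2, so most genes had none in a given list. Of the 4 eIF2α kinases that start the response, 3 had a peak in both. *EIF2AK3* (PERK, the ER stress sensor) was the highest, with a paired peak of 6.11 in replicate 1 and 8.46 in replicate 2, followed by *EIF2AK1* (HRI, the heme sensor; 4.43 and 3.32) and *EIF2AK4* (GCN2, the amino acid sensor; 2.28 and 2.35). *EIF2AK2* (PKR) had no exonic peak. Of 8 subunits of eIF2 and its exchange factor eIF2B, 2 had a peak in both lists, *EIF2B1* (5.13 and 4.47) and *EIF2S2* (2.38 and 2.02), and 6 had none in either. This share of 25% was below the 33.4% of all protein-coding genes, on few genes and with RNA levels unknown.

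Of 6 partner bZIP factors, 5 had a peak in both lists, against 33.4% of all protein-coding genes. *ATF6* had the highest pair (9.05 and 5.97), then *JUN* (7.20 and 5.05), *CEBPG* (5.24 and 3.53), *CEBPB* (4.70 and 2.75) and *NFE2L2* (2.58 and 2.49). *ATF3* had a peak in replicate 2 alone, in the 5′ UTR, with a fold enrichment of 4.67. Of 15 genes of the IRE1 and ATF6 arms and of ER folding, 9 had a peak in both lists. The strongest were *DNAJB9*, an ER co-chaperone (13.7 and 16.8), and *ERN1*, which encodes IRE1 itself (20.2 and 9.06).

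Metabolic targets followed. Among 12 genes of amino acid synthesis, 4 had a peak in both lists, or 33.3%, against 33.4% of all genes, and 7 in neither, with *CBS* (5.18 and 6.49) and *GOT1* (6.12 and 3.60) the highest. *CBS* has a near-identical annotated copy, CBSL, so its peak is uncertain as to the copy. Among 8 amino acid transporters, 6 had a peak in both, led by *SLC1A4* (9.15 and 6.96) and *SLC6A9* (4.83 and 3.26). Of 15 other ATF4 targets and relatives of the 10 genes, 11 had a peak in both lists and 4 in neither. *TRIB2* (13.5 and 7.20) and *STC2* (9.51 and 9.14) had the strongest pairs there, and 6 of the 15 had a 5′ UTR summit in both lists. Whether these differences between lists of genes follow RNA levels or transcript length was not tested.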

How the data were processed

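The labels place 2 samples in the m6A IP group and 2 in the input group. Per the study's methods, paired-end Illumina reads were mapped to hg38 with TopHat2 and called with MACS2 at default settings, whereas the submitters' processing notes name fastp, HISAT2 and MACS2. Releases, and whether the input served as control, are not given in the sources used here. The authors deposited 1 peak list per IP sample, with a fold enrichment (the summit's ratio to the caller's background), −log10 of the p-value and of q, and a score, the whole part of 10 times −log10 q, which was not used. The lists end at q of 0.0491 and 0.0497, so weaker sites are missing. Per the labels, cells were fixed with UV before lysis, and the library kit keeps strand, but the peaks carry none. The m6A-RIP method of the study describes no UV step.

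All 24 chromosome names with an hg38 counterpart were used in each list, 0 peaks passed a chromosome end, and peaks on contigs were left out. The 10 genes and the pathway lists were chosen with earlier results of these data known. All 10 genes are named. Of the other pathway genes, those in lists of 6 or fewer and the top 2 by geometric mean fold enrichment of a paired peak in larger lists are named. Regions follow the MANE Select transcript (9 of 10 genes, and 19061 of 20046 protein-coding genes) or else the longest coding sequence. The stop codon counts as 3′ UTR. Coordinates are 1-based. Summits are exonic when in an exon of any GENCODE transcript of the gene. Peaks sharing 1 bp are shared, and pairs are each other's largest overlap. Upstream frames run from every 5′ UTR ATG to the first in-frame stop on the spliced transcript. The *ATF4* frame and the sequences at 5′ UTR peaks were added after the values were seen. Code was checked on simulated positions and peaks. Python 3.11.15, numpy 2.4.6, pandas 2.3.3, scipy 1.17.1, pysam 0.24.0 and matplotlib 3.10.9 were used.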

Additional observations from a re-analysis of the deposited data

Results flagged for a closer look

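A signal also had its summit outside annotated exons. The weaker *ASNS* peak of replicate 1 had its summit in an intron near the first exon (chr7:97872258-97872380), with a fold enrichment of 2.71, and entered none of the counts of exonic summits. The peak itself reached over 30 nt of the 5′ UTR in exon 1, so *ASNS* is among the 7 genes with a peak over the 5′ UTR in replicate 1. An exon of the unnamed gene ENSG00000284707 on the same strand also lay under it. It is given here because its summit is outside the exonic measurement, with no control list analysed to set it against. Replicate 2 had no peak there.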

How the results depend on the processing

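Of 69 recomputed values of 12 results, 50 stayed within 1.5 times the reported count, or within the spread of the replicates or pairs, and 19 moved. Only the median log2 ratio could reverse its sign, and 0 of its values did. A fold enrichment of 5 or more moved most. It left 3 genes with an exonic peak in both lists and 6 in either, 9 and 3 exonic peaks in replicates 1 and 2, 3 shared peaks in each, 1 and 0 summits in the 5′ UTR, and 0 genes with a peak over the 5′ UTR in both lists. GGAC was then near 62.5% and 0% of the summits left on main transcripts. These shares rest on very few summits, and no share over all genes is given at this cut. With q of 1e-05 or less, 1 summit of replicate 2 remained in the 5′ UTR. On the transcripts with the longest coding sequence, 3 summits of replicate 1 lay in the 5′ UTR and 3 genes had a peak over it in both lists. The share with GGAC was 42.9% in replicate 2 at peak midpoints, 20% and 21.4% in the 25-nt window, and 65% and 57.1% in the 100-nt window, since the window sets how much sequence is searched. Leaving out a replicate left 7 or 10 genes with an exonic peak and 5 or 7 with a peak over the 5′ UTR. A peak midpoint cannot be used for whole peaks over the 5′ UTR. No paired analysis was possible because only the IP samples had peak lists. The small number of peaks limits every share, and depth is unknown.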
